A study of Mus musculus with 12 samples.

Results

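The genes described here were 32 components and known targets of the hypoxia-inducible factor (HIF) pathway, taken as a list of names that leaves the glycolytic enzymes out. Of these, 30 were measured, among 10365 genes in all. Bnip3 had 1 named probe, which was detected on 1 of 12 arrays and was not kept, and Loxl2 was not analysed here. The cells were immortalized tumor-initiating cells of the mouse, measured on Illumina Mouse WG-6 v2.0 bead arrays. In the normoxic standard conditions, cells had been moved into standard medium with a DMEM base and kept under 21% oxygen for up to 7 days, with 1 array for each of days 1 to 6 and 3 arrays for day 7. In the hypoxic stem cell conditions, with 3 arrays, the cells stayed at 3% oxygen in a serum-free mammary stem cell medium based on MEBM, supplemented with 2% Cultrex. Oxygen, medium and supplement thus changed together, and their parts cannot be told apart. No label says that replicates came from separate cultures, so every p-value here rests on a spread between samples that could be purely technical.

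HIF is a pair of proteins, an alpha subunit (from Hif1a or Epas1) and the partner encoded by Arnt. In the presence of oxygen, prolyl hydroxylases (Egln1, Egln2 and Egln3) mark the alpha subunit, the Vhl protein recognises the mark, and the alpha subunit is degraded. The asparaginyl hydroxylase encoded by Hif1an also acts on the alpha subunit and keeps it from its coactivators. At low oxygen the pair binds DNA at a short core sequence, ACGTG or GCGTG, and raises transcription of genes for acid handling, blood vessels, mitochondria, matrix and chromatin. Oxygen acts largely on the stability of the alpha protein, which an RNA array does not measure. HIF activity is a known feature of poorly supplied regions of breast tumours.

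The arrays detected 34.3% to 37.7% of the 45281 probes (detection p below 0.05). Of the lists of epithelial markers, 6 of 8 luminal and 6 of 6 basal mammary genes were measured, and all 6 luminal ones were detected on every day 7 and hypoxic array. On day 7, 4 of the 6 luminal markers passed the test as lower and 0 as higher. Of the 6 basal markers 3 passed as lower (Trp63, Itga6 and Krt5, each by more than 2-fold) and 1 as higher (Acta2, 0.70 log2). Of all genes, 33.7% passed as lower and 25.9% as higher. A second kept probe of Itga6 gave 0.35 and did not pass, and the other kept probes of Acta2 gave 1.75, 1.67 and 1.58. Summed linear signals were 12660 to 13394 on day 7 and 22136 to 24315 in hypoxic cells for the luminal list, and 40923 to 46477 on day 7 and 43949 to 51308 in hypoxic cells for the basal list. Of 8 fibroblast markers 5 were measured, with sums of 2026 to 2259 on day 7 and 381 to 481 in hypoxic cells. Of these 5, 4 passed the test as higher on day 7 and 1 as lower, and Col1a1 and Col3a1 were not detected on any hypoxic array. A second kept probe of Col3a1 gave -0.44 and did not pass. Of 8 macrophage markers, Cd14 and Mpeg1 alone were measured, with sums of 1604 to 2154 on day 7 and 464 to 624 in hypoxic cells. Of these, Cd14 passed as higher on day 7 (1.87 log2, adjusted p = 0.000134) and Mpeg1 did not pass (0.31, adjusted p = 0.356), and Ptprc was not measured. Whether any of these markers had a part in the values below was not tested. The order of the deposited detection p-values put days 4 to 6 together with replicate 3 of the hypoxic cells and replicates 2 and 3 of day 7 (set a) and the other 6 arrays next to each other (set b), and no label says whether these sets are batches. A second deposited table gave some of the same arrays other sample names. The names of the signal table were used here.

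Most of the HIF pathway genes were lower in normoxic than in hypoxic cells. On day 7, 20 of 30 fell and 4 rose at an adjusted p below 0.05 (limma, Benjamini-Hochberg adjustment over all genes tested). Of all genes tested, 33.7% fell and 25.9% rose in the same comparison. The median difference was -0.94 on the log2 scale over the 30 genes and -0.11 over all genes. The genes that rose were Arnt, Vhl, Angptl4 and Lox, and those not past the threshold were Hif1a, Epas1, Egln2, Mif, Higd1a and Fam162a. At 2-fold or more, 13 were lower and 3 higher, against 16% and 13.7% of all genes. The day 7 arrays lay entirely below the hypoxic arrays for 23 genes and entirely above for 5, against 37.5% and 28.6% of all genes. With arrays shifted to a common median of all probes, 4378 of all genes fell and 2038 rose, against 3496 and 2688 here, and 20 of the 30 fell and 4 rose. Set a holds only replicate 3 of the hypoxic cells, and set b only replicate 1 of day 7. Within a set, 1 side of the comparison was thus a single array. The calls of Vhl, Bnip3l, Jmjd6 and Ddit4 were lost within each set, and those of Adm and Plod2 within set a. Such losses cannot be told apart from those due to fewer arrays. Of the 27 genes detected on all 12 arrays, 19 fell and 4 rose. The share among all genes so detected was not computed, so this count has no background to be read against. With a detection p below 0.01 required on at least 3 arrays, 38.3% of 9007 genes fell and 29.5% rose. In bulk samples, fewer cells that express a gene and less of its RNA per cell cannot be told apart.

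**Figure D1:**
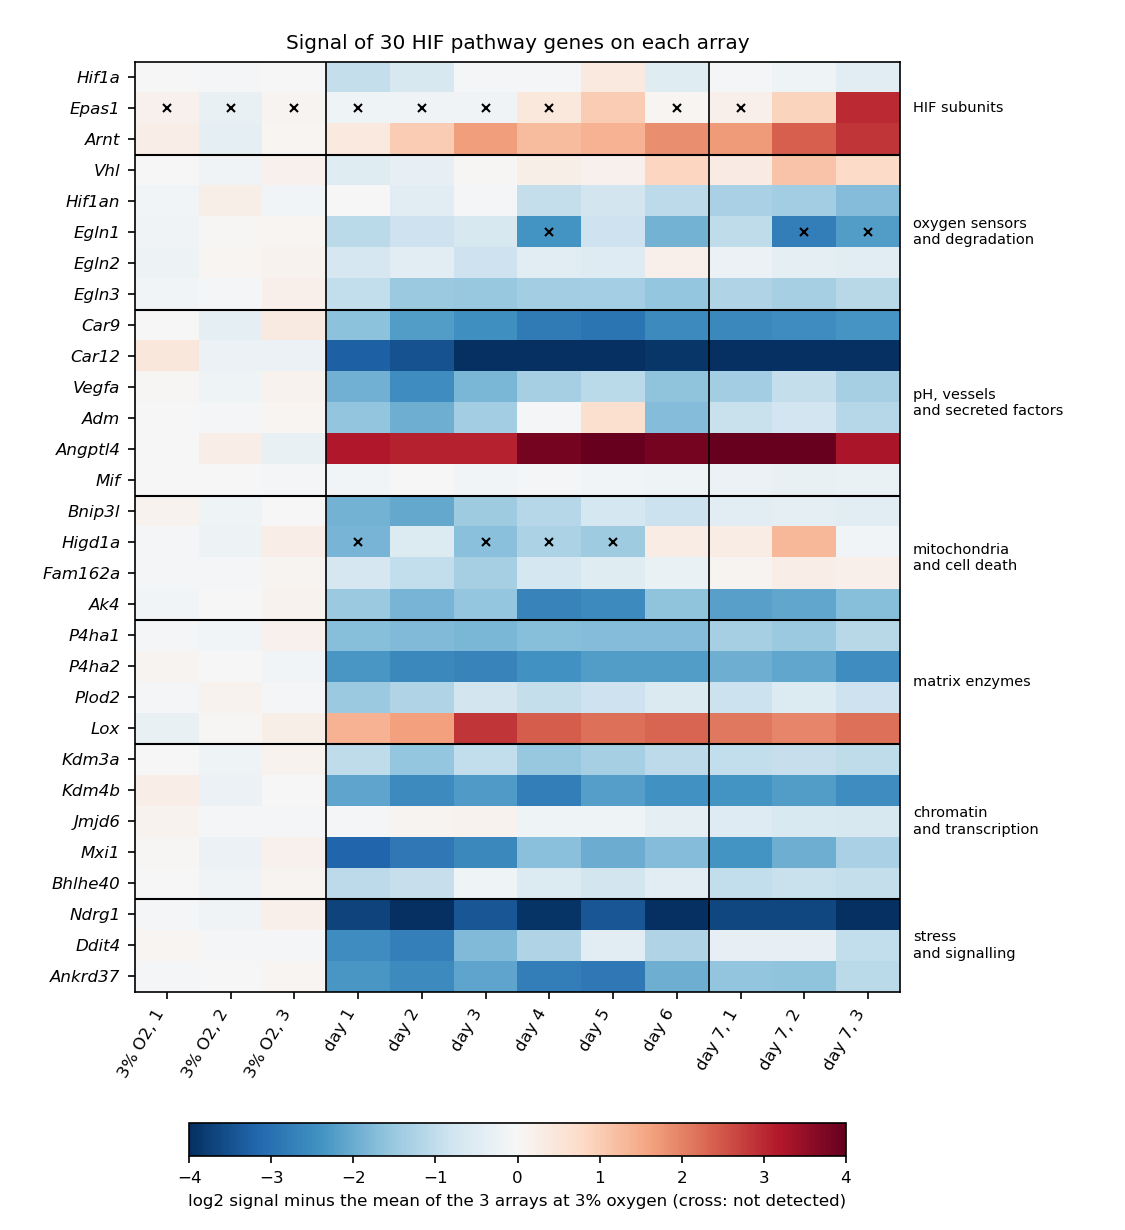
Log2 signal of each of 30 HIF pathway genes on each of 12 arrays, minus the mean of the 3 hypoxic arrays (labelled 3% O2). Rows are grouped by role, columns run from the hypoxic arrays through days 1 to 6 to the 3 day 7 arrays, colours stop at 4 in either direction, and a cross marks an array on which the probe was not detected. Blue (lower) fills most rows of the normoxic columns, while Arnt (its brightest probe only), Angptl4 and Lox are red (higher) throughout.

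On days 1 to 3, taken as 3 single arrays against the hypoxic triplicate, 21 of 30 genes fell and 3 (Arnt, Angptl4 and Lox) rose by the same test, against 29.2% and 25.6% of all genes. The median difference was -1.26 over the 30 genes and -0.055 over all genes. This test takes single days to vary as the triplicates did. Of the 30 genes, 24 lay below the lowest hypoxic array on day 1, against 43.5% of all genes, and 23 or 24 did on every later normoxic array, against 42.6% to 47.3%. The fall was thus present on the first array after transfer. Both comparisons share the hypoxic arrays.

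**Figure D2:**
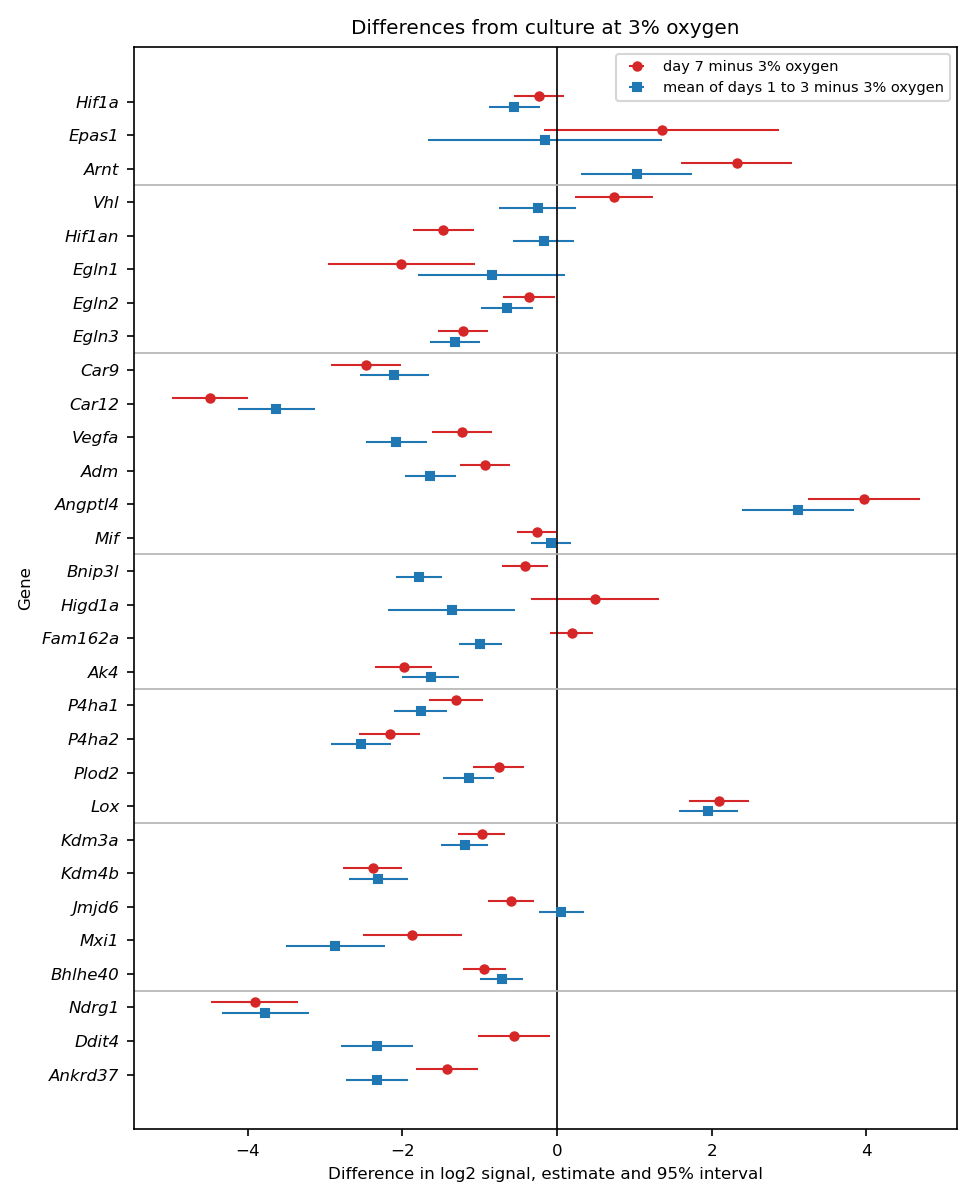
Differences in log2 signal from the hypoxic cells (3% oxygen) with 95% intervals of the limma fit, for day 7 (red circles) and for the mean of days 1 to 3 (blue squares). Genes are in the same order as in the heat map, and points left of 0 are lower than in hypoxic cells. Car12 and Ndrg1 lie farthest to the left on day 7, Angptl4 farthest to the right.

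Promoter sequence was available for 23 of the 32 genes, from RefSeq on the build GRCm38.p6, as the 250 bases before a transcript start. Both strands were searched for ACGTG and for GCGTG. A match to either was present in at least 1 window of 19 of these 23 genes (82.6%), against 41.5% of 27025 genes and 38.6% of 32851 windows. The 27025 genes were not limited to those measured on the arrays, and the share among measured genes was not computed. Whether the higher share is particular to the HIF pathway genes was therefore not tested. Matches to the motifs may overlap each other. The windows of 4 genes are printed because their genes stand for different courses: Car9, P4ha2 and Ankrd37 fell in both comparisons, whereas Fam162a fell on days 1 to 3 and met the hypoxic range on day 7. Each reads 5′ to 3′ towards the gene, and capitals mark the matches on either strand. The Car9 window is chr4:43506776-43507025 on the plus strand, with 1 match 18 bases before the start. That of P4ha2 is chr11:54100674-54100923 on the plus strand, with 3 matches. That of Ankrd37 is chr8:45999851-46000100 on the minus strand, with 4 matches, and that of Fam162a is chr16:36071562-36071811 on the minus strand, with 6.
Car9: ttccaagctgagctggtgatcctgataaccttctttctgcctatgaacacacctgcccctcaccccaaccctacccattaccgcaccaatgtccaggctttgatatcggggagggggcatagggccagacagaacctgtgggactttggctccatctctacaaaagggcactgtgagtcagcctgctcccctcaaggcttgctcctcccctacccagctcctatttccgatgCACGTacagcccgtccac
P4ha2: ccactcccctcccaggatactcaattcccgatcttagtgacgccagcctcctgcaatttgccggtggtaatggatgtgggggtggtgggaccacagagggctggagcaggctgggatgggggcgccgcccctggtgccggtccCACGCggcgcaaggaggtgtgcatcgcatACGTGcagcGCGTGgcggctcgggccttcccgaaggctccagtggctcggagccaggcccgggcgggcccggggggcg
Ankrd37: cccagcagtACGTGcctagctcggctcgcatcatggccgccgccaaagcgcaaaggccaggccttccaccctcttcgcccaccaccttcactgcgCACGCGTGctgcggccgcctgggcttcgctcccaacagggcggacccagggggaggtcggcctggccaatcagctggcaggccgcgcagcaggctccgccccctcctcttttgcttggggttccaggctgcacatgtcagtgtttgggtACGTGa
Fam162a: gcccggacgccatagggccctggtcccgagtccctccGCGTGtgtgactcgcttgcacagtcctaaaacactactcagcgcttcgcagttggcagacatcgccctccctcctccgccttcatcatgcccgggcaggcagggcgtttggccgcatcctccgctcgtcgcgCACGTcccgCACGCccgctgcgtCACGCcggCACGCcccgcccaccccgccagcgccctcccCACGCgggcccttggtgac
Vhl, Hif1an, Car12 and Mif had no match in the windows given, and a match or its absence in these letters says nothing of binding.

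Among the HIF subunits, Hif1a fell on days 1 to 3 and did not pass the threshold on day 7. Its log2 signal was 8.04, 7.996 and 8.05 in hypoxic cells, 7.08, 7.38, 7.97, 7.97, 8.43 and 7.54 on days 1 to 6, and 7.97, 7.86 and 7.57 on day 7. The lowest array was day 1, day 5 stood above every hypoxic array, and the day 7 arrays lay just under the hypoxic ones. The difference was -0.23 ± 0.14 (SE, n = 3 each, adjusted p = 0.191) on day 7, with a 95% interval of -0.55 to 0.10. With arrays shifted to a common median of all probes it was -0.61 and passed (adjusted p = 0.0106), so the day 7 call of Hif1a depends on the scaling. On days 1 to 3 it was -0.55 (adjusted p = 0.0120), and without the day 1 array this call was lost (-0.35, adjusted p = 0.0937).

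Epas1, which encodes the other alpha subunit, was near background. It was detected on 3 of 12 arrays, namely day 5 and day 7 replicates 2 and 3. Its signal was 5.05, 4.59 and 4.97 in hypoxic cells, 4.69, 4.72, 4.74, 5.30, 5.90 and 4.94 on days 1 to 6, and 5.06, 5.76 and 7.85 on day 7. Replicate 3 of day 7 stood far above every other array. The hypoxic arrays were not above background, so the fold of the day 7 mean, 1.81, was set by the lowest detected signal. That fold leans on replicate 3 and is not a lower limit on the change. The difference was 1.35 with a 95% interval of -0.16 to 2.87 and did not pass the threshold (adjusted p = 0.109). Without day 7 replicate 1 it did (1.93, adjusted p = 0.0253). Over 19 alternative runs, some with a single array on 1 side, the difference ran from 0.24 to 1.93. In 16 of these runs it stayed short of the threshold.

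Arnt, the common partner, gave opposite answers from its probes. On the brightest probe the signal was 7.81, 7.16 and 7.62 in hypoxic cells, 7.93, 8.55, 9.21, 8.81, 8.94 and 9.40 on days 1 to 6, and 9.25, 9.92 and 10.39 on day 7. Every normoxic array was above every hypoxic one. The second probe read 8.997, 8.990 and 8.978 in hypoxic cells, 8.40, 8.24, 8.40, 8.17, 8.48 and 8.08 on days 1 to 6, and 8.28, 8.27 and 8.15 on day 7, and every normoxic array was below every hypoxic one. On day 7 the brightest probe rose by 2.32 ± 0.30 (SE, adjusted p = 0.000528), whereas the second changed by -0.75 ± 0.12 (adjusted p = 0.00142 in the fit over probes). Both probes were detected on all 12 arrays, and the other kept probes differed by 0.32 and 0.10 and did not pass. The direction of Arnt RNA as a whole is therefore not settled by these arrays, and the entry for Arnt in every count here is that of the brightest probe. Its rise on days 1 to 3 (1.03, adjusted p = 0.0237) was lost without hypoxic replicate 2 (0.84, adjusted p = 0.0792), hypoxic replicate 3 (1.08, adjusted p = 0.0512) or the day 3 array (0.71, adjusted p = 0.124).

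**Figure D3:**
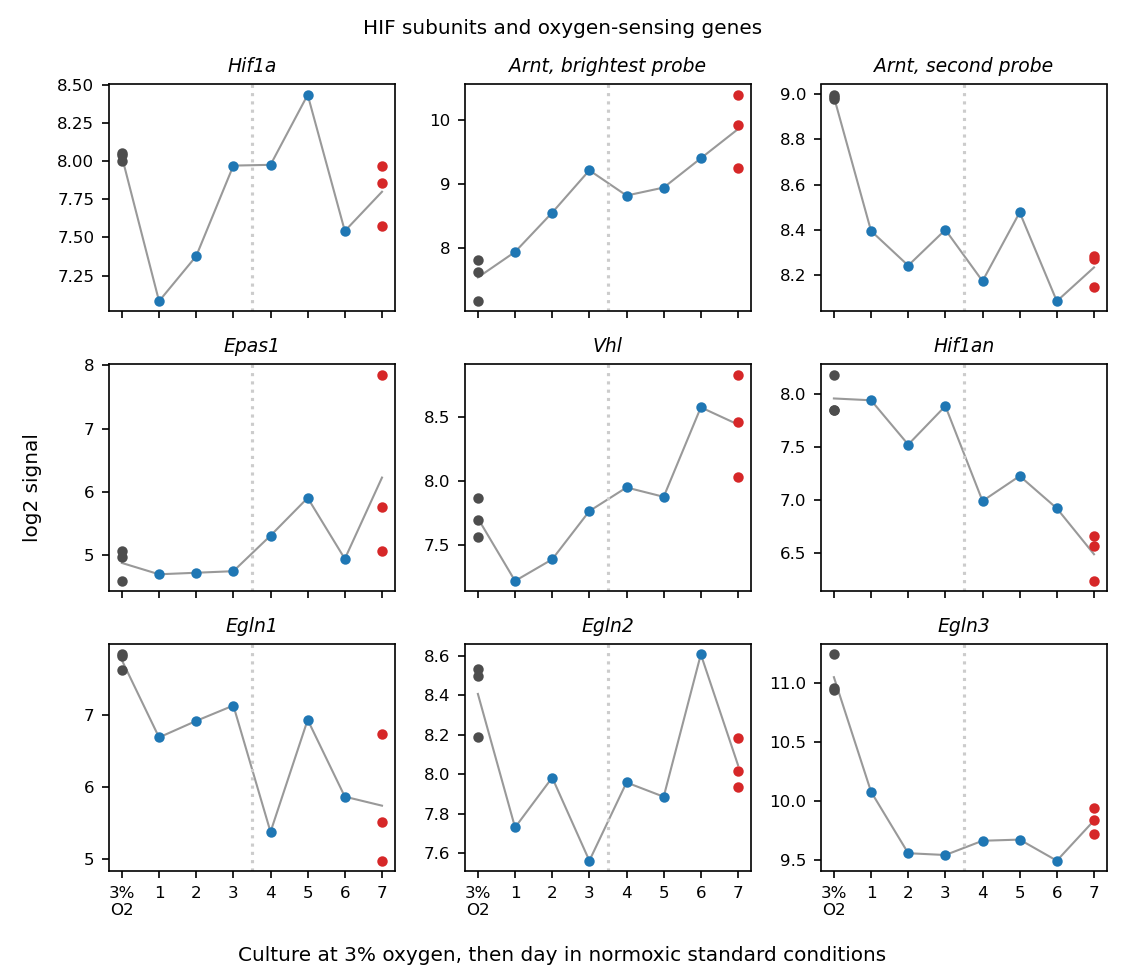
Log2 signal of the HIF subunits and oxygen-sensing genes, with each panel on its own scale. Grey points are the 3 hypoxic arrays (3% O2), blue points the single arrays of days 1 to 6 and red points the 3 day 7 arrays, the line joins means, and the dotted line marks the boundary between days 3 and 4, where set b ends and set a begins for the single days. The Arnt probes run in opposite directions, Hif1an is near its hypoxic level to day 3 and lower from day 4, and Egln3 is low on every normoxic array.

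Of the oxygen sensors and the degradation machinery, Egln1, Egln3 and Hif1an fell by day 7, Vhl rose and Egln2 did not pass. Egln3, a hydroxylase whose own gene is a HIF target, read 10.94, 10.96 and 11.24 in hypoxic cells, 10.08, 9.56, 9.54, 9.66, 9.67 and 9.49 on days 1 to 6, and 9.84, 9.72 and 9.94 on day 7. All normoxic arrays were below all hypoxic arrays, and day 1 was the highest of them. The difference was -1.21 ± 0.14 (SE, adjusted p = 0.000267) on day 7 and -1.32 (adjusted p = 0.000200) on days 1 to 3. Of its other kept probes, 1 was detected on all 3 hypoxic arrays and no day 7 array, and the other on 1 day 7 array and no hypoxic array.

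Egln1, the hydroxylase with the main part in setting HIF levels in most cells, read 7.61, 7.81 and 7.84 in hypoxic cells, 6.69, 6.91, 7.13, 5.38, 6.93 and 5.87 on days 1 to 6, and 6.73, 4.98 and 5.52 on day 7. It was below the hypoxic range on every normoxic array and was detected on 1 of 3 day 7 arrays. The day 7 difference was -2.01 ± 0.40 (SE, adjusted p = 0.00386), and a second probe gave -2.09. On days 1 to 3 the difference of -0.84 did not pass (adjusted p = 0.116), but it did without day 7 replicate 1 (-0.84, adjusted p = 0.00759). The second probe passed on days 1 to 3 as well (-1.58, adjusted p = 0.00111 in the fit over probes), as did the remaining one, which was detected on 4 of 12 arrays (adjusted p = 0.000293). Egln2 read 8.19, 8.495 and 8.53 in hypoxic cells, 7.73, 7.98, 7.56, 7.96, 7.89 and 8.61 on days 1 to 6, and 8.19, 8.02 and 7.94 on day 7. It was low on days 1 to 5, and day 6 stood above the hypoxic range. The difference on days 1 to 3 was -0.65 (adjusted p = 0.00714), and that on day 7 was -0.36 ± 0.14 (SE, adjusted p = 0.0650), which passed without hypoxic replicate 1 (-0.47, adjusted p = 0.0317).

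Hif1an and Vhl changed late. Hif1an read 7.84, 8.18 and 7.84 in hypoxic cells, 7.94, 7.52, 7.88, 6.99, 7.22 and 6.92 on days 1 to 6, and 6.66, 6.56 and 6.23 on day 7. Days 1 and 3 lay within the hypoxic range, and all arrays from day 4 on lay below it. Its day 7 difference was -1.47 ± 0.17 (SE, adjusted p = 0.000267), while that of days 1 to 3 was -0.17 with a 95% interval of -0.56 to 0.22 (adjusted p = 0.414). Vhl read 7.69, 7.56 and 7.86 in hypoxic cells, 7.22, 7.38, 7.76, 7.95, 7.87 and 8.57 on days 1 to 6, and 8.03, 8.83 and 8.46 on day 7. The first 2 days were below the hypoxic range, and all arrays from day 4 on were above it. Vhl was 0.73 ± 0.21 higher on day 7 (SE, adjusted p = 0.0197), a call lost without hypoxic replicate 1 (0.73, adjusted p = 0.0599) or hypoxic replicate 2 (0.66, adjusted p = 0.0658), and with arrays shifted to a common median of all probes (0.34, adjusted p = 0.199). Within set a it was 0.78 and within set b 0.41, each with a single array on 1 side, and neither passed. A slope was fitted over the 9 normoxic arrays, in log2 units per day. It was -0.24 for Hif1an (adjusted p = 0.00139) and 0.21 for Vhl (adjusted p = 0.00287), and both passed with the sets as a block. Since days 1 to 3 are all of set b and days 4 to 6 all of set a, the step between days 3 and 4 cannot be told apart from the sets.

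Of the targets for acid handling, vessels and secreted factors, Car9, Car12, Vegfa and Adm fell by day 7, Angptl4 rose and Mif did not pass. Car9 and Car12 encode carbonic anhydrases of the cell surface, which turn CO2 and water into bicarbonate and acid. Car12 (chr9:66712296-66766845) read 12.90, 12.23 and 12.23 in hypoxic cells, 9.17, 8.98, 8.31, 7.92, 8.30 and 8.55 on days 1 to 6, and 8.15, 7.82 and 7.92 on day 7. The gap between the groups was several times the spread within either. Car12 was 22.5-fold lower on day 7 (-4.49 ± 0.21 log2, SE, adjusted p = 1.49e-05), the largest fall among the 30 genes. A second probe gave -4.60. Car9 read 9.98, 9.62 and 10.32 in hypoxic cells, 8.34, 7.73, 7.53, 7.13, 7.05 and 7.44 on days 1 to 6, and 7.40, 7.49 and 7.62 on day 7. It declined over the first days and was then level, with all normoxic arrays below the hypoxic range. The day 7 difference was -2.47 ± 0.19 (SE, adjusted p = 5.52e-05), and its 2 other kept probes gave -2.13 and -1.58.

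Vegfa, the main growth factor of blood vessels, fell early and was higher again on later days, though still below its hypoxic level. It read 12.56, 12.32 and 12.64 in hypoxic cells, 10.60, 10.02, 10.67, 11.17, 11.43 and 10.91 on days 1 to 6, and 11.10, 11.56 and 11.18 on day 7. The lowest array was day 2, and no normoxic array reached the hypoxic range. The difference was -2.08 on days 1 to 3 (adjusted p = 6.53e-05) and -1.23 ± 0.17 on day 7 (SE, adjusted p = 0.000599). Adm, which encodes the vasodilating peptide adrenomedullin, had a different course, and its arrays are given because of it. It read 10.04, 9.98 and 10.12 in hypoxic cells, 8.47, 8.10, 8.65, 9.95, 10.69 and 8.31 on days 1 to 6, and 9.17, 9.27 and 8.90 on day 7. Day 4 was near the hypoxic level and day 5 above it, each on 1 array, with low values on either side. Adm differed by -1.64 on days 1 to 3 (adjusted p = 8.09e-05) and by -0.93 ± 0.14 on day 7 (SE, adjusted p = 0.000919). Over the 12 arrays the profile most like that of Adm among the 30 genes was Hif1a (Pearson r = 0.84, given as a description of arrays that share the 2 triplicates).

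Angptl4, which encodes a secreted inhibitor of lipoprotein lipase, moved against most other targets. Angptl4 (chr17:33774900-33781575) read 7.23, 7.47 and 6.92 in hypoxic cells, 10.40, 10.30, 10.28, 11.03, 11.54 and 11.03 on days 1 to 6, and 11.50, 11.56 and 10.48 on day 7. Every normoxic array stood well above every hypoxic array. It was 15.6-fold higher on day 7 (3.97 ± 0.31 log2, SE, adjusted p = 5.55e-05) and 3.12 log2 units higher on days 1 to 3 (adjusted p = 0.000157). Mif, the gene of a secreted cytokine, lay between 14.50 and 14.82 on all arrays. Its difference on day 7 was -0.26 (95% interval -0.52 to -0.01, adjusted p = 0.0709).

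Of the mitochondrial genes, 4 of 4 measured members passed as lower on days 1 to 3, against 29.2% of all genes. On day 7, 2 of 4 passed as lower, against 33.7%. The arrays of Bnip3l, Fam162a and Higd1a are given here because of their return. Bnip3l, which encodes a receptor for the removal of mitochondria, read 12.63, 12.31 and 12.49 in hypoxic cells, 10.58, 10.43, 11.05, 11.33, 11.76 and 11.60 on days 1 to 6, and 12.05, 12.09 and 12.06 on day 7. It was lowest on day 2 and approached but did not reach the hypoxic range by day 7. The difference was -1.79 on days 1 to 3 (adjusted p = 4.02e-05) and -0.41 ± 0.13 on day 7 (SE, adjusted p = 0.0257), and the slope was 0.27 log2 per day (adjusted p = 0.000248). The slope passed in every alternative run, none of which left out an array of days 1 to 6. The day 7 call did not hold: leaving out hypoxic replicate 1 or 3 or any day 7 array gave adjusted p of 0.0540 to 0.0728, and scaling to the median of probes detected on all arrays turned the value to 0.062 (adjusted p = 0.723).

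Fam162a, a mitochondrial protein linked to cell death at low oxygen, read 13.19, 13.17 and 13.34 in hypoxic cells, 12.56, 12.25, 11.92, 12.53, 12.74 and 12.98 on days 1 to 6, and 13.34, 13.49 and 13.45 on day 7. It was lowest on day 3, and the day 7 arrays met the upper end of the hypoxic range. The difference was -0.99 on days 1 to 3 (adjusted p = 0.000386) and 0.19 ± 0.12 on day 7 (SE, adjusted p = 0.205). With arrays shifted to a common median the day 7 value was 0.44 over all probes (adjusted p = 0.0395) or 0.83 (adjusted p = 0.00118) with only the probes that all arrays detected. Higd1a, a regulator of the respiratory chain, was dim and was not detected on days 1, 3, 4 and 5. It read 6.61, 6.47 and 6.94 in hypoxic cells, 4.82, 6.11, 4.99, 5.40, 5.25 and 6.98 on days 1 to 6, and 6.96, 7.99 and 6.55 on day 7. The low days gave way to values within or above the hypoxic range on days 6 and 7. It differed by -1.36 on days 1 to 3 (adjusted p = 0.0134) and by 0.49 ± 0.35 on day 7 (SE, adjusted p = 0.265).

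Ak4, a mitochondrial adenylate kinase, stayed low. It read 9.12, 9.21 and 9.37 in hypoxic cells, 7.76, 7.36, 7.68, 6.55, 6.67 and 7.63 on days 1 to 6, and 7.06, 7.17 and 7.52 on day 7. All normoxic arrays were below the hypoxic ones, with days 4 and 5 the lowest. The day 7 difference was -1.98 ± 0.16 (SE, adjusted p = 6.32e-05).

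Among the matrix enzymes, P4ha1, P4ha2 and Plod2 fell on day 7 while Lox rose, and all 4 did so on days 1 to 3 too. Of all genes, 33.7% fell and 25.9% rose on day 7, and 29.2% and 25.6% on days 1 to 3. P4ha1 and P4ha2 encode catalytic subunits of the prolyl hydroxylases that stabilise collagen. P4ha2 read 12.36, 12.22 and 12.13 in hypoxic cells, 9.91, 9.64, 9.56, 9.82, 9.99 and 10.02 on days 1 to 6, and 10.29, 10.16 and 9.76 on day 7. P4ha1 read 9.14, 9.11 and 9.37 in hypoxic cells, 7.51, 7.45, 7.37, 7.49, 7.47 and 7.47 on days 1 to 6, and 7.88, 7.73 and 8.10 on day 7. In both genes the normoxic arrays formed a narrow band below the hypoxic range. The day 7 differences were -2.17 ± 0.17 for P4ha2 (SE, adjusted p = 5.48e-05) and -1.30 ± 0.15 for P4ha1 (SE, adjusted p = 0.000265). The second probes gave -2.07 for P4ha2 and -2.13 for P4ha1. Plod2, a lysyl hydroxylase of collagen, lay between 7.42 and 8.36 on the normoxic arrays and between 8.83 and 9.06 on the hypoxic arrays. Its day 7 difference was -0.75 (adjusted p = 0.00280).

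Lox, whose product crosslinks collagen and elastin outside the cell, read 9.60, 9.93 and 10.12 in hypoxic cells, 11.27, 11.52, 12.73, 12.30, 12.09 and 12.22 on days 1 to 6, and 11.98, 11.84 and 12.09 on day 7. The highest array was day 3, and no normoxic array overlapped the hypoxic range. It was 4.26-fold higher on day 7 (2.09 ± 0.16 log2, SE, adjusted p = 6.10e-05) and 1.96 log2 units higher on days 1 to 3 (adjusted p = 8.09e-05). Lox is known from fibroblasts as well as tumour cells. Of the 5 measured fibroblast markers, 4 rose in the same comparison, against 25.9% of all genes. Col1a1 and Col3a1 were detected on no hypoxic array and were kept only through normoxic arrays. The direction of these markers was thus in part set by the detection filter. Whether fibroblasts had a part in the Lox value was not tested.

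All 5 genes of chromatin and transcription fell on day 7, against 33.7% of all genes, and 4 of 5 on days 1 to 3, against 29.2%. Kdm4b, a histone lysine demethylase that itself uses oxygen, read 10.76, 10.25 and 10.47 in hypoxic cells, 8.38, 7.95, 8.22, 7.73, 8.29 and 8.08 on days 1 to 6, and 8.09, 8.24 and 7.999 on day 7. It was low from the first day and stayed level. The day 7 difference was -2.38 ± 0.16 (SE, adjusted p = 3.54e-05), and a second probe gave -1.66. Kdm3a, a demethylase of the same broad class, lay between 8.97 and 9.59 on the normoxic arrays and between 10.35 and 10.69 on the hypoxic arrays. Its day 7 difference was -0.97 (adjusted p = 0.000543), and its other probes gave -0.89 and -0.99.

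Mxi1, which encodes a partner of Max that opposes Myc, had the largest fall of this group on days 1 to 3. It read 9.54, 9.26 and 9.66 in hypoxic cells, 6.30, 6.64, 6.91, 7.81, 7.49 and 7.76 on days 1 to 6, and 7.11, 7.54 and 8.19 on day 7. Day 1 was the lowest array and no later array reached the hypoxic range. The difference was -2.87 on days 1 to 3 (adjusted p = 0.000135) and -1.87 ± 0.27 on day 7 (SE, adjusted p = 0.000837). Bhlhe40, a repressor tied to the circadian clock, lay between 11.26 and 12.14 on normoxic and between 12.19 and 12.42 on hypoxic arrays, and differed by -0.94 on day 7 (adjusted p = 0.000426). Jmjd6, a protein hydroxylase, changed late. It averaged 11.98 ± 0.07 on day 7 and 12.57 ± 0.13 in hypoxic cells (SD, n = 3 each). The difference was -0.59 on day 7 (adjusted p = 0.00483) and 0.057 on days 1 to 3 (adjusted p = 0.730, 95% interval -0.24 to 0.35). The day 7 call of Jmjd6 was lost on scaling to the median of probes detected on all arrays (-0.12, adjusted p = 0.509).

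The genes of stress and signalling, Ndrg1, Ddit4 and Ankrd37, all fell in both comparisons. Of all genes, 33.7% fell on day 7 and 29.2% on days 1 to 3. Ndrg1, a cytoplasmic protein induced by many stresses and in tumour cells at low oxygen, lies at chr15:66929318-66969641. It read 13.06, 13.001 and 13.35 in hypoxic cells, 9.42, 8.93, 9.73, 9.21, 9.72 and 9.08 on days 1 to 6, and 9.49, 9.49 and 8.70 on day 7. Day 1 already lay within the range of the later normoxic arrays. It was 15.04-fold lower on day 7 (-3.91 ± 0.24 log2, SE, adjusted p = 2.57e-05). Ankrd37, an ankyrin repeat protein and sensitive HIF target, read 9.40, 9.45 and 9.53 in hypoxic cells, 7.13, 6.90, 7.36, 6.69, 6.59 and 7.51 on days 1 to 6, and 7.88, 7.84 and 8.38 on day 7. The day 7 arrays were the highest of the normoxic ones and still below the hypoxic range. The difference was -2.33 on days 1 to 3 (adjusted p = 4.53e-05) and -1.43 ± 0.17 on day 7 (SE, adjusted p = 0.000333).

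Ddit4, an inhibitor of mTOR signalling, followed Bnip3l, and its arrays are given for that. It read 12.52, 12.39 and 12.38 in hypoxic cells, 9.94, 9.70, 10.66, 11.24, 11.98 and 11.21 on days 1 to 6, and 12.10, 12.09 and 11.44 on day 7. The lowest array was day 2, and the day 7 arrays stayed below the hypoxic range, replicate 3 farthest. The difference was -2.33 on days 1 to 3 (adjusted p = 8.32e-05) and -0.55 ± 0.20 on day 7 (SE, adjusted p = 0.0437). The day 7 call was lost without hypoxic replicate 1, 2 or 3 or day 7 replicate 3 (adjusted p of 0.0708 to 0.123) and with the sets as a block (-0.49, adjusted p = 0.0930). Its slope was 0.35 log2 per day (adjusted p = 0.00172). Over the 12 arrays each of Ddit4 and Bnip3l was the other's closest profile among the 30 genes (Pearson r = 0.97), as a description of arrays that share the triplicates.

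**Figure D4:**
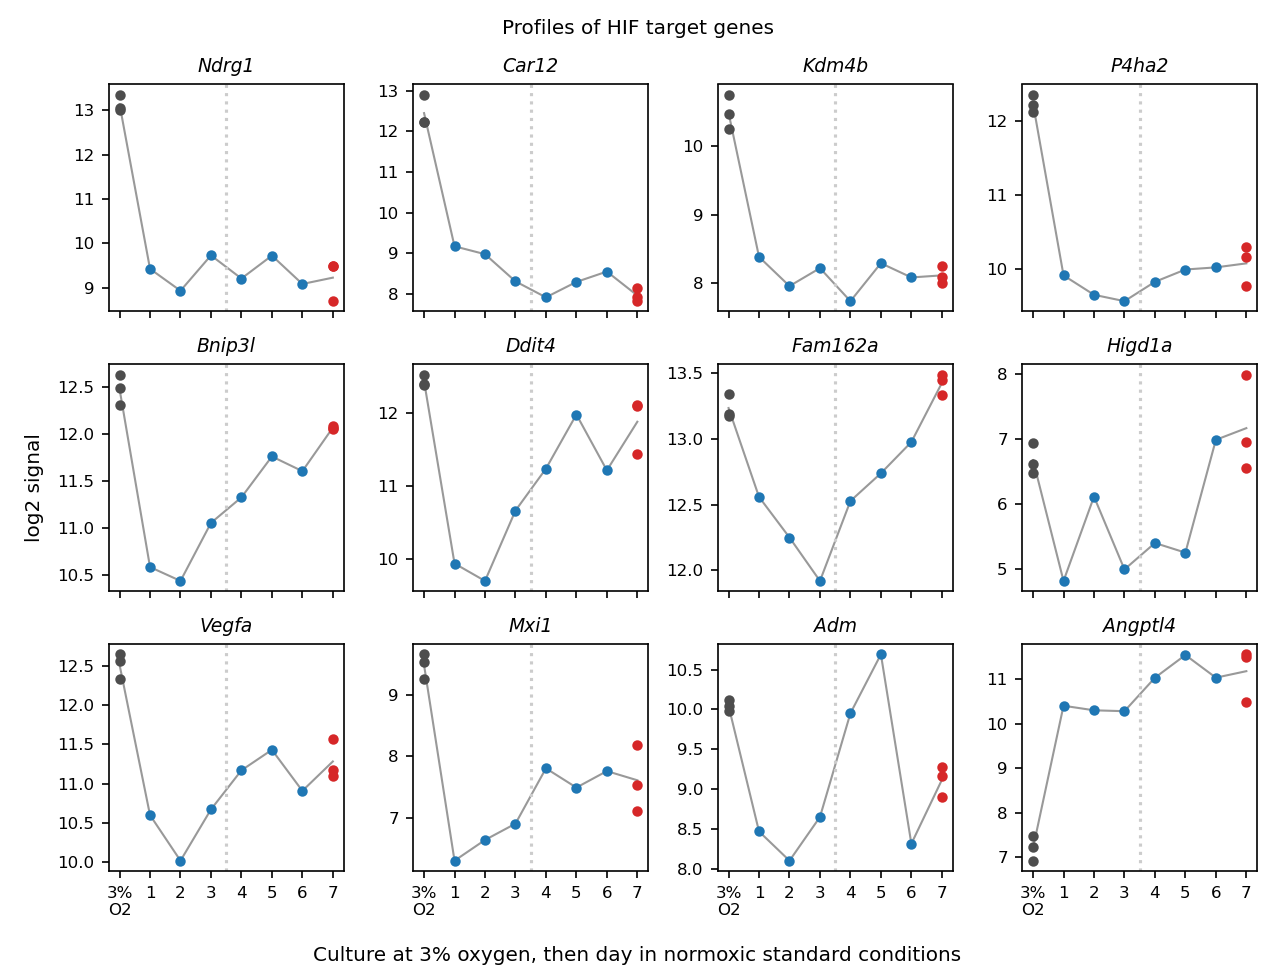
Log2 signal of 12 HIF target genes, each panel on its own scale, with grey points for the 3 hypoxic arrays (3% O2), blue for the single arrays of days 1 to 6 and red for the 3 day 7 arrays. The line joins means and the dotted line separates days 1 to 3 from days 4 to 6. The top row stays low to day 7, and the middle row is higher on day 7 than on days 1 to 3. Adm has a peak on days 4 and 5, and Angptl4 is high on every normoxic array.

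Within the normoxic course itself, 9 of the 30 genes had a rising slope from day 1 to day 7 and 3 a falling one, against 16.5% and 19% of all genes. The rising genes were Arnt (brightest probe), Vhl, Vegfa, Bnip3l, Higd1a, Fam162a, Plod2, Mxi1 and Ddit4. The falling ones were Hif1an, Car12 and Jmjd6. In the fit over probes, second probes detected on all 12 arrays did not pass for Plod2 (0.012, adjusted p = 0.844) or Vegfa (0.12, adjusted p = 0.0621). A second probe of P4ha2, not called here, had a rising slope that passed (0.11, adjusted p = 0.0308). With arrays shifted to a common median of all probes, 10.4% of all genes had a rising and 31.8% a falling slope, and 6 and 5 of the 30 did. With the sets as a block, 7 rose and 1 fell, against 10.4% and 9.83% of all genes: the slopes of Vegfa, Plod2, Mxi1, Car12 and Jmjd6 no longer passed (adjusted p of 0.0622 to 0.206), those of Bnip3l, Ddit4, Hif1an and Vhl did, and that of Ankrd37 did as well. Without day 7 replicate 2 the slopes of Car12 (-0.15, adjusted p = 0.0533), Vegfa (0.14, adjusted p = 0.0771) and Plod2 (0.092, adjusted p = 0.0962) were lost. Ndrg1, Kdm4b, Egln3 and Bhlhe40 had slopes between -0.019 and -0.0015 per day that did not pass. On single arrays, 18 of 30 genes were at 2-fold or more below the hypoxic mean on day 1, 16 on days 2, 3, 4 and 6, and 13 on day 5. The same share among all genes was 13.5%, 15.7%, 14.6%, 14.8%, 11.4% and 15.5% on days 1 to 6. The median over the 30 genes was -1.27, -1.35, -1.35, -1.17, -0.78 and -1.05 on days 1 to 6, and -0.93, -0.84 and -0.996 on the day 7 arrays.

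On day 7, 25.9% of all genes rose and 33.7% fell, and the counts of the other pathway lists are to be read against that. Of 23 measured HIF partners and stability factors, 7 rose (30.4%) and 11 fell (47.8%), with a median of -0.47 against -0.11 over all genes. The lowest was Cited4 (-3.12), a coactivator-binding protein, followed by Os9 (-1.45). The highest were Mtor (2.24) and Eloc (1.57), a subunit of the Vhl ligase complex. A second probe of Mtor gave -1.59, so its direction is not settled. Of 50 measured further targets outside glycolysis, 15 rose (30%) and 22 fell (44%), with a median of -0.23. Trf (transferrin, -3.22) and Stc2 (-2.77) were lowest, and Igfbp3 (3.72) and Tfrc (the transferrin receptor, 3.25) highest. Of 17 measured glycolytic targets 11 fell (64.7%) and 1 rose (5.88%), with a median of -0.62. The glucose transporter gene Slc2a1 (-2.28) and Pfkp (-2.14) were lowest there, and Pfkfb4 (0.81) was the one that rose.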

How the data were processed

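Gene expression was measured in 12 samples on 1-colour bead arrays, and groups, days and replicate numbers came from the sample titles. The deposited table gave, per array, a signal on the log2 scale with its detection p-value for each of 45281 probes, and the deposited log2 signals were neither background-corrected nor normalized between arrays, judging by their medians of 6.74 to 6.94. Per the file headers the deposited p-value columns name no sample, and each was matched to the signal column that it orders exactly. Bead summarization was not given in the sources used here, and a second deposited table with conflicting sample names was not used.

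Signals were processed with neqc of limma 3.58.1 (R 4.3.3), which used the detection p-values to model background, with an offset of 16, followed by quantile normalization and log2. Probes with a detection p below 0.05 on at least 3 arrays were kept (18561), and each gene was represented by its brightest kept probe. Probe names came from the platform annotation: 34885 probes had 1 gene symbol, 18 had several and 10378 had none, and 0 symbols changed on update. A limma model with a mean for each of 8 groups was fitted to all genes, with 4 residual degrees of freedom, and a slope per day to the 9 normoxic arrays, with 7. Tests were 2-sided with Benjamini-Hochberg adjustment over 10365 genes and a threshold of 0.05, and were tested on simulated data. The terms rose and fell mark values past that threshold. Where a gene was not detected on any array of a group, its fold is a bound set by the lowest detected signal. The number of arrays limits the precision. Genes named were all measured members. Values on every array were given by rule for subunits, sensors and members at 2-fold or more on day 7, and those of Adm, Bnip3l, Fam162a, Higd1a and Ddit4 were added after their values were seen. Of other lists, the lowest and highest 2 past the threshold were named. The members and lists were chosen with earlier results of these data known. Arrays were not paired by replicate number in the main tests.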

Additional observations from a re-analysis of the deposited data

Results flagged for a closer look

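The following genes differed between the early and the late normoxic days: 1 of the 2 comparisons with hypoxic cells passed the threshold, the other did not, and the slope over the 9 normoxic arrays passed. The slope was 0.21 log2 per day for Vhl, 0.36 for Higd1a and 0.20 for Fam162a. It was -0.24 for Hif1an and -0.12 for Jmjd6. Hif1an, Vhl and Jmjd6 passed against hypoxic cells on day 7, and Higd1a and Fam162a on days 1 to 3.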

How the results depend on the processing

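Under every alternative run, 17 of the 30 genes kept their side of the threshold on day 7. The same held for 24 on days 1 to 3 and 17 for the slope. Some runs could not change a result: the slope uses no hypoxic array, so leaving one out had no effect on it. A fit of only the hypoxic and day 7 arrays gave the same day 7 counts over all genes, 3496 lower and 2688 higher. Directions were compared only where a value passed the threshold. Otherwise they could turn, as for Epas1 on days 1 to 3 (-0.30 to 0.34) and the slope of Ndrg1 (-0.086 to 0.023). Of 599 values for single genes on day 7, 31 lost the call and 9 gained it. A reversal was counted only where a value passed before or after the change. There was 1, Bnip3l at 0.062 after a shift to the median over probes detected on all arrays. Mif, not called here, ran from -0.38 to 0.016 on day 7. The other reversal counted was the slope of Arnt, at -0.011. It came when every kept probe had to pass in 1 direction, a rule added after seeing the data. The median over all genes on day 7, -0.11 here, was -0.31 with arrays shifted to a common median of all probes and 0.089 with the median of probes detected on all arrays, and that over the members was -1.19 and -0.79. On days 1 to 3 the member median was -1.09 with an offset of 50, -1.04 without background correction and -1.36 with all probes in 1 direction. Set a alone called 1378 genes lower and 1248 higher on day 7, against 3496 and 2688 with all arrays, from 6 arrays in place of 12. Genes with a falling slope numbered 3 among the members, 5 with the median of all probes, and 1 with the sets as a block. The shares among all genes were 19%, 31.8% and 9.83%.

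Same-numbered hypoxic and day 7 arrays did not deviate together (correlations of 0.029, -0.0037 and 0.059). Differently numbered ones ran from -0.11 to 0.078. With 3 arrays in each group these values cannot settle whether the replicate numbers pair the arrays, and the main tests did not pair them. With the replicate number as a block, 19 members fell and 4 rose on day 7 (32.6% and 25.3% of all genes), 19 fell and 2 rose on days 1 to 3 (24.8% and 20.6%), and 1 slope fell and 5 rose (7.56% and 8.47%). Leaving out 1 array at a time gave 18 to 19 members lower and 3 to 5 higher on day 7, with medians of -0.98 to -0.88, and 3067 to 3334 genes lower and 2411 to 2609 higher. On days 1 to 3 it gave 20 to 22 lower and 2 to 3 higher, against 25.3% to 30.1% and 22.4% to 26% of all genes. For the slope, leaving out 1 hypoxic or day 7 array gave 2 to 4 falling and 7 to 10 rising, against 13.6% to 19% and 12.7% to 16.5%. Leaving out a hypoxic array could not alter the slope. No array of days 1 to 6 was left out of it, so its dependence on those single arrays was not tested. With 4 residual degrees of freedom and single arrays for days 1 to 6, no single day was tested, and dim genes such as Epas1, Egln1 and Higd1a are limited by signal over background.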

Other observations

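Of 29 measured relatives of the members, from the same gene families, 9 rose (31%) and 10 fell (34.5%) on day 7 (limma, threshold as above), close to the 25.9% and 33.7% of all genes. Single relatives are given for their values. Angptl6 averaged 7.20 ± 0.84 on day 7 and 10.41 ± 0.08 in hypoxic cells (SD, n = 3 each), a difference of -3.22 (adjusted p = 0.000327), the opposite direction to its relative Angptl4. Vegfb, of the same family as Vegfa, averaged 10.58 ± 0.15 on day 7 and 12.49 ± 0.09 in hypoxic cells, a difference of -1.91 (adjusted p = 3.68e-05). Ak1, a cytosolic adenylate kinase, averaged 9.21 ± 0.03 on day 7 and 7.20 ± 0.12 in hypoxic cells, a difference of 2.00 (adjusted p = 2.32e-05), whereas Ak4 fell. Mxd3, a Max partner like Mxi1, was not detected on any hypoxic array and was at least 3.21-fold higher on day 7 (adjusted p = 1.68e-05).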
